A study of Mus musculus with 6 samples.

Results

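The genes described are enzymes and transporters that handle foreign compounds and reactive carbonyls. They were found by symbol, under a rule set with earlier results of these data known. The rule takes aldehyde dehydrogenases (Aldh, leaving out Aldh18a1 and Aldh1l2), aldo-keto reductases (Akr), carbonyl reductases (Cbr), quinone reductases (Nqo) and epoxide hydrolases (Ephx). It also takes cytochromes P450 (Cyp), carboxylesterases (Ces), UDP-glucuronosyltransferases (Ugt), sulfotransferases (Sult) and ABCC transporters, with Por and Osgin1. The rule found 81 of the 16472 genes in the authors' deposited table. The samples were cultures of HT22, an immortalised mouse hippocampal line, exposed for 16 h either to AA147 or to the vehicle DMSO, with 3 RNA-seq libraries per group. The labels give the dose of AA147 as 10 mM, a value whose unit may be mistyped and could not be checked here. They do not say whether the libraries of a group came from separate cultures. AA147 is a small molecule known to activate the stress regulators ATF6 and NRF2.

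These enzymes work in sequence. Phase I enzymes oxidise, reduce or hydrolyse a compound, phase II enzymes attach glucuronate or sulfate to it, and ABCC pumps export the product. Reactive carbonyls, such as the aldehydes left by lipid peroxidation, are removed either by reduction to alcohols or by oxidation to acids. Aldo-keto and carbonyl reductases, which draw on NADPH or NADH, carry out the reduction, and aldehyde dehydrogenases the oxidation. Quinone reductases act on quinones instead. NRF2, which binds antioxidant response elements, and the aryl hydrocarbon receptor (AhR), which binds xenobiotic response elements, are textbook activators of many of these genes. Liver and gut are their main sites, and neurons and glia express a smaller set.

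The table holds a mean normalized count over all 6 libraries for each gene and no value for a single library, so whether the libraries of the 2 groups overlap was not analysed here. Each fold change is on the log2 scale, with the standard error (SE) that the authors deposited. It is read as AA147 over vehicle, but the table does not name the numerator, and every direction below depends on that reading. The reading rests on known NRF2 activation by AA147, so the direction of NRF2 targets is assumed and not a result. A gene is called positive or negative here when its adjusted p in the authors' deposited table is under 0.05. Group averages are given where helpful: they were computed from the deposited mean and fold change at face value, and carry no error of their own. In bulk cultures, fewer cells of a kind and less RNA per cell cannot be told apart.

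Markers of the labelled cell type were sparse. Of 15 neuronal markers, 3 were listed in the authors' deposited table, with Tubb3 at a mean of 1199, Eno2 at 62.1 and Stmn2 at 6.24, and only Tubb3 was called, at 0.43. Of 7 fibroblast markers, 6 were listed, with means from 181 to 254004 in the authors' deposited table, and 5 of these, the collagens Col1a1, Col1a2 and Col3a1 with Dcn and Pdgfra, were called negative, at fold changes from -1.52 to -0.81. Thy1, the other listed fibroblast marker, lay at -0.03. The part of this shift in the values below was not tested. Astrocyte markers were split, with Slc1a3 called negative at -1.30 and Gja1 positive at 0.31 per the authors' deposited table, among 4 of 7 listed. The microglial gene Csf1r, 1 of 5 listed, was called positive at 0.95 on a mean of 48.0, per the authors' deposited table. Of 4 progenitor markers only Vim was listed (mean 152806, -0.08, not called in the authors' deposited table), and of 5 oligodendrocyte markers 2 were listed, with means of at most 28.8 and no call. Of 4 hepatocyte markers, only Apoa1 was listed, at a mean of 1.67. Markers not listed were not analysed here.

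The detoxification enzymes changed in both directions, with equal numbers called each way. Of the 81 genes, 64 had an adjusted p in the authors' deposited table, and 28 of these were called, which is 43.8% beside 20.2% of all 13597 genes tested. The calls were positive for 14 genes, beside 9.05% of all genes, and negative for 14, beside 11.1%. The median fold change of the 64 was -0.06 in the authors' deposited table, against 0.01 over all genes tested, so the group as a whole lay near no change. Its members spread more widely, with a median absolute fold change of 0.34 against 0.16. Calls were made for 25 of the 45 members whose mean reached 100, 55.6% beside 23.8% of all genes of that abundance. These were 13 positive calls, beside 10.7%, and 12 negative calls, beside 13.1%. The set was chosen with earlier results of these data known, and no test was run over it.

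Most of the called changes were modest. In absolute terms, 11 of the 28 called members reached 0.5 on the log2 scale of the authors' deposited table, and 4 reached 1, namely Cyp3a13, Aldh3b2, Cbr2 and Akr1c14. Among the 10633 abundant genes, those with a mean of at least 100, Aldh3a1 ranked 37th and Nqo1 39th from the top by fold change, and Cbr2 ranked 19th from the bottom. With the other numerator, top and bottom would change places.

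**Figure D1:**
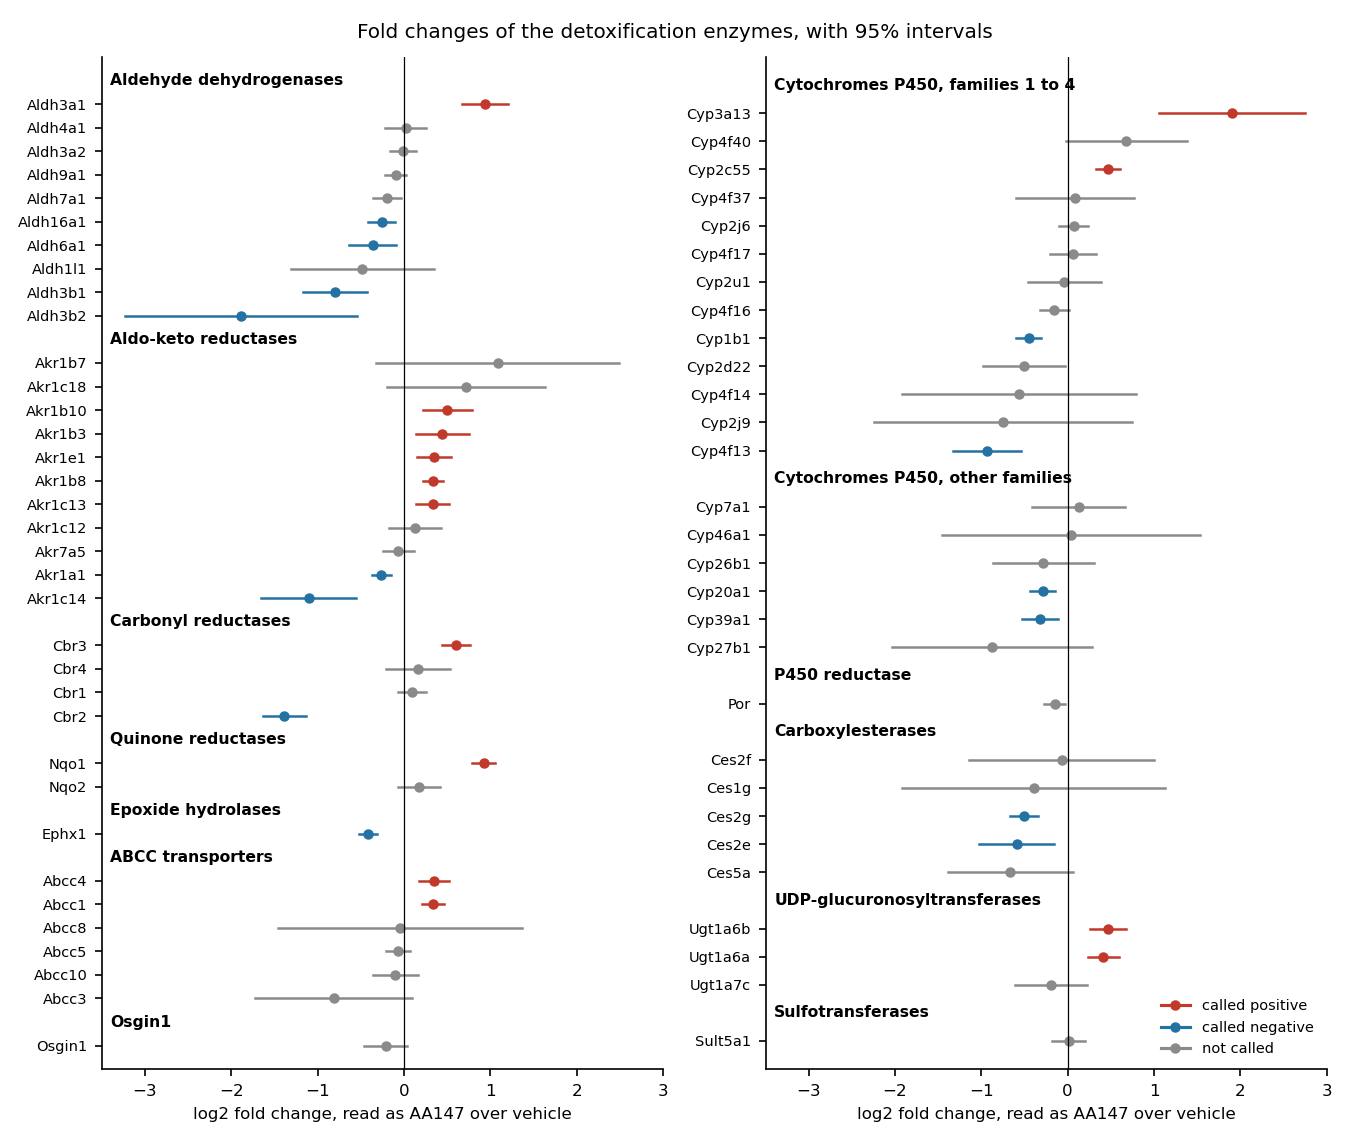
Log2 fold change (x axis, read as AA147 over vehicle) of the 64 enzymes with an adjusted p, by family, as points with 95% intervals as bars. Red marks the 14 called positive, blue the 14 called negative and grey the 36 not called. Cbr2 and Cbr3 lie on opposite sides of 0, as do Aldh3a1 and Aldh3b1.

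Grouped by the reaction they catalyse, a grouping made after the values were seen and given no test, the enzymes can be set beside the 9.05% positive and 11.1% negative calls of all genes tested. The 17 reductases (Akr, Cbr and Nqo) held 7 positive and 3 negative calls per the authors' deposited table, and their median was 0.33. The 35 oxidising or hydrolysing enzymes with an adjusted p (Aldh, Cyp, Ephx and Ces) held 3 positive calls, a share near that of all genes, and 11 negative calls, with a median of -0.28. Conjugation and export genes (Ugt, Sult and Abcc) held 4 positive and 0 negative calls among 10, with a median of -0.02. These calls include Ugt1a6a and Ugt1a6b, whose transcripts were 99.2% identical and which cannot be taken as separate measurements. Por and Osgin1 were not called.

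**Figure D2:**
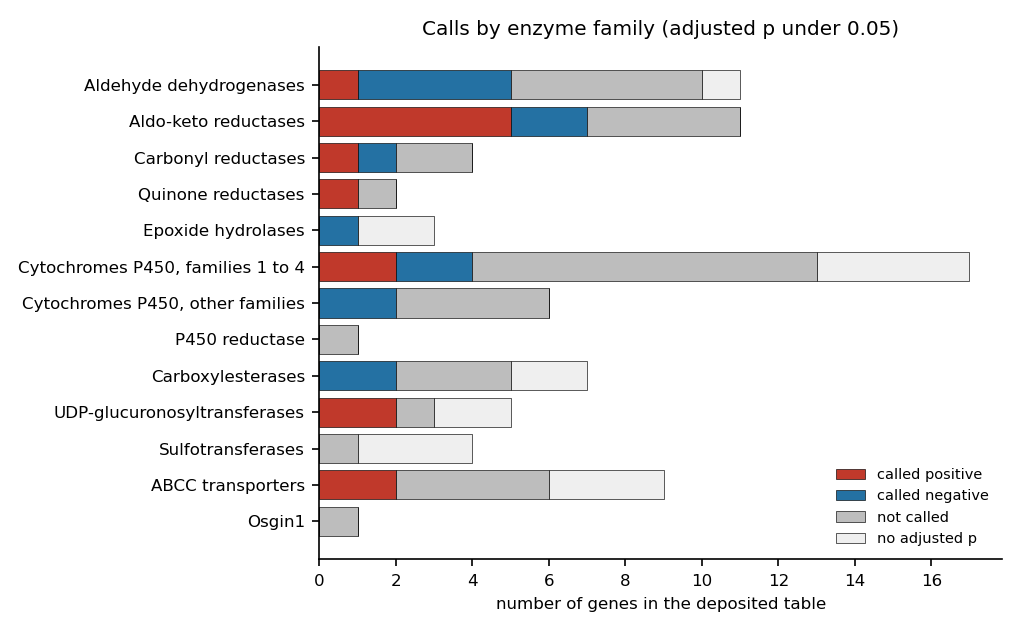
Number of genes (x axis) in each family (y axis) that were called positive, called negative, not called or without an adjusted p in the deposited table. Aldo-keto reductases hold 5 of the 14 positive calls, and the aldehyde dehydrogenases and the P450s of both bars hold 4 negative calls each.

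The promoters show what sequence lies next to the start sites of genes that moved together. RefSeq windows for assembly GRCm38.p6, reaching from 250 bases before to 50 after a start site, were matched by symbol for 66 of the 81 genes. They were searched on both strands for the core of the antioxidant response element, TGACNNNGC, and for the core of the xenobiotic response element, GCGTG. The first was found in 1 of the 10 positive members with a window, Abcc4, in 0 of the 12 negative ones, and in 16.7% of the 11025 genes of the table that had a window. The second was found in 2 of the 10 positive members, Abcc4 and Akr1b8, in 4 of the 12 negative ones, and in 52.8% of the same 11025 genes. A match is a run of letters and not a shown binding site, and elements that lie farther away are outside these windows. The positive members Aldh3a1, Abcc1, Akr1b3 and Ugt1a6b and the negative members Aldh3b2 and Cyp39a1 had no window and were not searched.

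The stretches below run up to the start site, 5′ to 3′ on the gene's strand, except that of Cyp1b1, which ends 51 bases before it. Capitals mark the matched letters of either core. Nqo1 is shown because it had the smallest adjusted p of the members, and held neither core here. Abcc4 is shown at both of its annotated start sites, each with an antioxidant core, and the longer stretch also has 2 xenobiotic cores. Akr1b8 and Cyp1b1, called in opposite directions, each hold 1 xenobiotic core.

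Nqo1, chr8:107403206-107403305, minus strand: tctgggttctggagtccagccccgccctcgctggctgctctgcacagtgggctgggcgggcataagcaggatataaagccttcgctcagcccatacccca

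Abcc4, chr14:118676932-118676991, minus strand: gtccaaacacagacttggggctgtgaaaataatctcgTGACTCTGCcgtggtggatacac

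Abcc4, chr14:118706220-118706339, minus strand: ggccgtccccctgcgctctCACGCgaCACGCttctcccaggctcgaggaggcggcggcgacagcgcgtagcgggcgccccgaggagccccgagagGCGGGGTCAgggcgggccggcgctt

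Akr1b8, chr6:34354086-34354145, plus strand: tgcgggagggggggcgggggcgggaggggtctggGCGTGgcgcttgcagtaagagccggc

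Cyp1b1, chr17:79715112-79715171, minus strand: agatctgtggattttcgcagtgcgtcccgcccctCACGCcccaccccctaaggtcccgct

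Quinone reductases pass a pair of electrons to quinones and so avoid semiquinone radicals. Nqo1, a standard reporter of NRF2 activity, nearly doubled as read here. Its direction follows from the assumed numerator, which rests on NRF2 activation, and is not a result. Nqo1 averaged 3343 over the libraries and stood at 0.93 on the log2 scale (SE 0.067, adjusted p 1.73e-40, per the authors' deposited table). This corresponds to an average of 2306 in vehicle and 4381 with AA147, a ratio of 1.90 with a 95% interval from 1.73 to 2.08. Nqo2, which takes its electrons from dihydronicotinamide riboside in place of NADPH, averaged 487 and stood at 0.17 (SE 0.12, adjusted p 0.376, per the authors' deposited table) and was not called. Its interval ran from -0.07 to 0.41. Exons of Nqo2 overlap those of Serpinb6a on the opposite strand over 15.9% of their length, and the libraries were not stranded.

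Carbonyl reductases, which reduce quinones, prostaglandins and drug ketones with NADPH, moved apart. Cbr3 was called positive at 0.60 (SE 0.082, adjusted p 8.97e-12, per the authors' deposited table), from an average of 1246 in vehicle to 1892 with AA147. Its neighbour on chromosome 16, Cbr1, had a similar mean of 1124 but lay at 0.10 (SE 0.083, adjusted p 0.468, per the authors' deposited table). The transcripts of the pair were 77.6% identical over 839 aligned bases. Cbr2, a mitochondrial carbonyl reductase known from lung, was the lowest of the abundant members, at -1.39 (SE 0.13, adjusted p 4.31e-26, per the authors' deposited table). Its average was 763 in vehicle and 292 with AA147. Cbr4, which acts in mitochondrial fatty acid synthesis, lay at 0.16 (SE 0.19, adjusted p 0.629, per the authors' deposited table) and was not called.

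Among the aldo-keto reductases, the Akr1b group was the most uniform. Its 4 listed genes sit in a row on chromosome 6, in the order Akr1b3, Akr1b8, Akr1b10 and Akr1b7. Akr1b3, the aldose reductase that turns glucose into sorbitol, was called positive at 0.44 (SE 0.16, adjusted p 0.0281, per the authors' deposited table). Akr1b8 and Akr1b10, reductases of lipid-derived aldehydes and retinal, were called positive at 0.34 (SE 0.061, adjusted p 6.11e-07) and 0.50 (SE 0.14, adjusted p 0.005, per the authors' deposited table). Akr1b8 was by far the most abundant of the 3, with an average of 3872 in vehicle and 4896 with AA147, where Akr1b10 went from 235 to 333 and Akr1b3 from 233 to 317. Akr1b7 had the highest value of the group, 1.08, with an SE of 0.72, but a mean of only 11.0, and carried no call at an adjusted p of 0.315, per the authors' deposited table. Akr1b7 and Akr1b10 transcripts were 89.4% identical over 963 bases, so reads may be shared between them.

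The Akr1c group, hydroxysteroid dehydrogenases that also reduce xenobiotic ketones, was mixed. Akr1c13 was called positive at 0.33 (SE 0.097, adjusted p 0.00552, per the authors' deposited table), from 699 to 880. Its near copy Akr1c12, 94.3% identical over 1269 bases, lay at 0.13 (SE 0.15, adjusted p 0.632, per the authors' deposited table) and was not called, so the values of this pair are uncertain. Akr1c14, a 3-alpha-hydroxysteroid dehydrogenase, was called negative at -1.10 (SE 0.28, adjusted p 0.00101, per the authors' deposited table), at averages of 94.7 and 44.1. The next gene on chromosome 13, Akr1c18, which inactivates progesterone, had a mean of 25.2 and lay at 0.72 (SE 0.47, adjusted p 0.301, per the authors' deposited table).

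The remaining aldo-keto reductases included the most abundant enzyme of the whole set. Akr1a1, the general aldehyde reductase that also acts in ascorbate synthesis, had a mean of 26652 and was called negative at -0.26 (SE 0.055, adjusted p 4.87e-05, per the authors' deposited table). Akr1e1, which reduces anhydrofructose, was called positive at 0.35 (SE 0.099, adjusted p 0.00388, per the authors' deposited table). Akr7a5, which reduces aflatoxin dialdehyde and succinic semialdehyde, was not called, at -0.06 (SE 0.089, adjusted p 0.697, per the authors' deposited table). Per kilobase of transcript, Akr1a1 held 76.7% of the summed means of this family. The summed averages per kilobase were therefore lower with AA147 (23189 against 25539), while those of the 10 other genes alone were higher (6190 against 5184).

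Aldehyde dehydrogenases carried 1 positive and 4 negative calls among 10 genes with an adjusted p, where 9.05% and 11.1% of all genes tested were called. The positive share is near that of all genes. Aldh3a1, which oxidises aromatic and lipid peroxidation aldehydes, had the largest positive fold change of the abundant members, 0.94 (SE 0.14, adjusted p 3.93e-10, per the authors' deposited table). Its average was 233 in vehicle and 446 with AA147. The gene next to it on chromosome 11, Aldh3a2, encodes the fatty aldehyde dehydrogenase of the endoplasmic reticulum and lay at -0.01 (SE 0.076, adjusted p 0.973, per the authors' deposited table). Their intervals were 0.67 to 1.21 and -0.16 to 0.14.

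The Aldh3b genes, whose products also act on lipid-derived aldehydes, lay at the other end of the family. Aldh3b1 was called negative at -0.80 (SE 0.19, adjusted p 0.000305, per the authors' deposited table), with averages of 182 in vehicle and 105 with AA147. Aldh3b2 was called at -1.89 (SE 0.69, adjusted p 0.0333, per the authors' deposited table), on a mean of only 12.8, and its interval of -3.23 to -0.54 was the widest of all calls. Transcripts of the pair were 85.5% identical over 1309 bases.

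The other aldehyde dehydrogenases held the remaining negative calls. Aldh6a1, the methylmalonate semialdehyde dehydrogenase of valine breakdown, was called negative at -0.36 (SE 0.14, adjusted p 0.048, per the authors' deposited table). It lost this call when p-values were adjusted over every gene with a p. Aldh16a1, a member of less settled function, was called negative at -0.26 (SE 0.081, adjusted p 0.0111, per the authors' deposited table). Not called were Aldh7a1 of lysine breakdown at -0.20 (adjusted p 0.0722), Aldh9a1 of carnitine synthesis at -0.10, Aldh4a1 of proline breakdown at 0.02 and the folate enzyme Aldh1l1 at -0.48 (SE 0.42) in the authors' deposited table. Aldh9a1 was the most abundant of the family per kilobase, with a mean of 3131.

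Ephx1, the microsomal epoxide hydrolase that opens arene and alkene epoxides, was the second most abundant member per kilobase, with a mean of 14024. It was called negative at -0.42 (SE 0.053, adjusted p 2.47e-13, per the authors' deposited table), from an average of 16032 in vehicle to 12016 with AA147. The interval of its ratio, 0.697 to 0.805, lay wholly below 1. Exons of Ephx1 overlap those of Tmem63a on the opposite strand over 0.913% of their length, those of Aldh16a1 and Pih1d1 over 2.29%, and those of Aldh6a1 and Lin52 over 1.78%. These were the only such overlaps of called members. Ephx3 and Ephx4 had means of 2.16 and 4.27 and no adjusted p in the authors' deposited table.

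**Figure D3:**
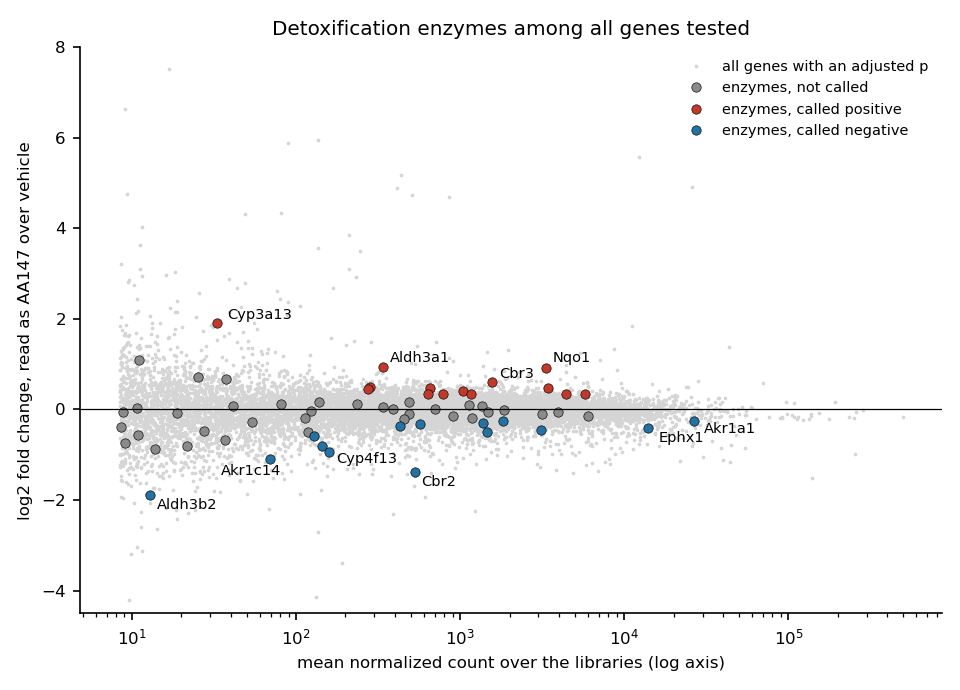
Mean normalized count (x axis, log scale) against log2 fold change (y axis, read as AA147 over vehicle) for the 13597 genes tested in grey, with the 64 enzymes on top. Nqo1, Aldh3a1 and Cbr3 stand out above and Cbr2 and Cyp4f13 below, while Ephx1 and Akr1a1, with means of 14024 and 26652, show smaller negative changes.

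Cytochromes P450 insert oxygen into their substrates, the microsomal ones with electrons from P450 reductase. Of the 23 listed, 19 had an adjusted p, and 2 were called positive (10.5%, near the 9.05% of all genes) and 4 negative (21.1%, beside 11.1%) in the authors' deposited table. Cyp3a13, of the drug-metabolising CYP3A group, had the largest positive fold change of any called member, 1.90 (SE 0.43, adjusted p 0.000174, per the authors' deposited table). It was scarce, with averages of 14.0 in vehicle and 52.2 with AA147, and the interval of its ratio ran from 2.07 to 6.74. Cyp2c55, a hydroxylase of arachidonic acid, was the most abundant P450 per kilobase and was called positive at 0.47 (SE 0.071, adjusted p 2.33e-09, per the authors' deposited table), from 2876 to 3978.

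Cyp1b1, which oxidises oestradiol and polycyclic hydrocarbons and is a textbook AhR target, was called negative at -0.45 (SE 0.074, adjusted p 3.14e-08, per the authors' deposited table). Its average was 3586 in vehicle and 2622 with AA147. Nqo1 and Aldh3a1, which are textbook targets of AhR as well as of NRF2, were called positive. Cyp1a1 and Cyp1a2 were not analysed here.

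The Cyp4f genes, omega-hydroxylases of fatty acids and leukotrienes, differed within a cluster on chromosome 17. Cyp4f13 was called negative at -0.93 (SE 0.20, adjusted p 7.49e-05, per the authors' deposited table), from an average of 209 to 109. The more abundant Cyp4f16 lay at -0.15 (SE 0.088, adjusted p 0.225) and Cyp4f17 at 0.06 (SE 0.14, adjusted p 0.827, per the authors' deposited table), neither of them called. Cyp4f14, Cyp4f37 and Cyp4f40, with means from 10.8 to 41.2, were not called either. Transcripts of Cyp4f16 and Cyp4f37 were 95.9% identical over 1607 bases, so counts of that pair are uncertain.

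Of the P450s with endogenous or unknown substrates, Cyp39a1, which hydroxylates 24-hydroxycholesterol, was called negative at -0.32 (SE 0.10, adjusted p 0.0142, per the authors' deposited table). The orphan enzyme Cyp20a1 was called negative at -0.29 (SE 0.075, adjusted p 0.00126, per the authors' deposited table). Cyp7a1, the rate-limiting enzyme of bile acid synthesis, lay at 0.13 (SE 0.28), and the retinoic acid hydroxylase Cyp26b1 at -0.28 (SE 0.30) in the authors' deposited table. Cyp46a1, the cholesterol 24-hydroxylase of neurons, and Cyp27b1, which activates vitamin D, had means of 10.7 and 13.8, and neither was called. Among the Cyp2 genes, which were grouped apart from these, Cyp2d22, Cyp2j6, Cyp2j9 and Cyp2u1 were not called. Their fold changes ran from -0.75 to 0.07 in the authors' deposited table. Por, the reductase that feeds all microsomal P450s, had a mean of 5979 and lay at -0.15 (SE 0.063, adjusted p 0.0721, per the authors' deposited table). It was not called as deposited.

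Carboxylesterases, which hydrolyse ester and amide drugs, had negative fold changes in all 5 genes with an adjusted p. Of these 5, 2 were called negative, where 11.1% of all genes tested were. Ces2g was called at -0.50 (SE 0.084, adjusted p 6.57e-08, per the authors' deposited table), from an average of 1705 in vehicle to 1203 with AA147. Ces2e was called at -0.59 (SE 0.22, adjusted p 0.0412, per the authors' deposited table), from 155 to 103. Between them on chromosome 8 lies Ces2f, which lay at -0.07 with an SE of 0.55 on a mean of 18.8 in the authors' deposited table. Ces5a at -0.66 (SE 0.37) and Ces1g at -0.39 (SE 0.78) in the authors' deposited table were not called, and their intervals included 0.

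The listed genes for conjugation by glucuronate came from a single locus. The 5 listed Ugt genes all belong to Ugt1a on chromosome 1, where alternative first exons are joined to common later exons. Ugt1a6a and Ugt1a6b, which act on small planar phenols, were called positive at 0.41 (SE 0.090, adjusted p 6.51e-05) and 0.46 (SE 0.10, adjusted p 0.00014, per the authors' deposited table). Their averages went from 887 to 1182 and from 547 to 755. Their transcripts were 99.2% identical over 3177 bases, so they cannot be taken as separate measurements. Ugt1a7c, from the same locus, had a mean of 113 and lay at -0.19 (SE 0.21, adjusted p 0.596, per the authors' deposited table). Its interval of -0.61 to 0.22 did not reach the fold change of either Ugt1a6 gene, but reads in the common exons cannot be assigned, and this difference was not tested. Of the sulfotransferases, Sult5a1 alone had an adjusted p and lay at 0.01 (SE 0.099, adjusted p 0.958, per the authors' deposited table).

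Among the 6 ABCC transporters with an adjusted p, 2 were called, both positive, where 9.05% of all genes tested were called positive. Abcc1, or MRP1, which exports glutathione conjugates and leukotriene C4, averaged 5751 and was called at 0.33 (SE 0.065, adjusted p 6.4e-06, per the authors' deposited table). Abcc4, or MRP4, which exports cyclic nucleotides and prostaglandins and whose promoters are printed above, was called at 0.35 (SE 0.088, adjusted p 0.000872, per the authors' deposited table), from 1026 to 1308. Abcc5, a related exporter of cyclic nucleotides with a mean of 3946, lay at -0.07 (SE 0.072, adjusted p 0.595, per the authors' deposited table), with an interval from -0.21 to 0.08. Abcc10 at -0.10 (SE 0.13) and Abcc3 at -0.81 (SE 0.46, mean 21.6) were not called in the authors' deposited table. Abcc8, a subunit of the ATP-sensitive potassium channel and no exporter, had a mean of 8.83 and was not called.

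Osgin1, an NRF2-induced growth inhibitor that is not an enzyme of xenobiotics, lay at -0.21 (SE 0.13, adjusted p 0.243, per the authors' deposited table) and was not called. Counting the textbook NRF2 targets, 13 of 14 were listed and 12 had an adjusted p. Of these, 8 were called positive, Nqo1, Aldh3a1, Cbr3, Akr1b8, Akr1b10, Akr1c13, Abcc1 and Abcc4, and 1 negative, Ephx1, beside 9.05% positive and 11.1% negative calls among all genes tested. Cbr1, Abcc3 and Osgin1 were not called, and Aldh1a1 was not analysed here. Because known NRF2 activation by AA147 underlies the assumed numerator, this count does not bear on the direction. The list of targets was also chosen with earlier results of these data known.

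**Figure D4:**
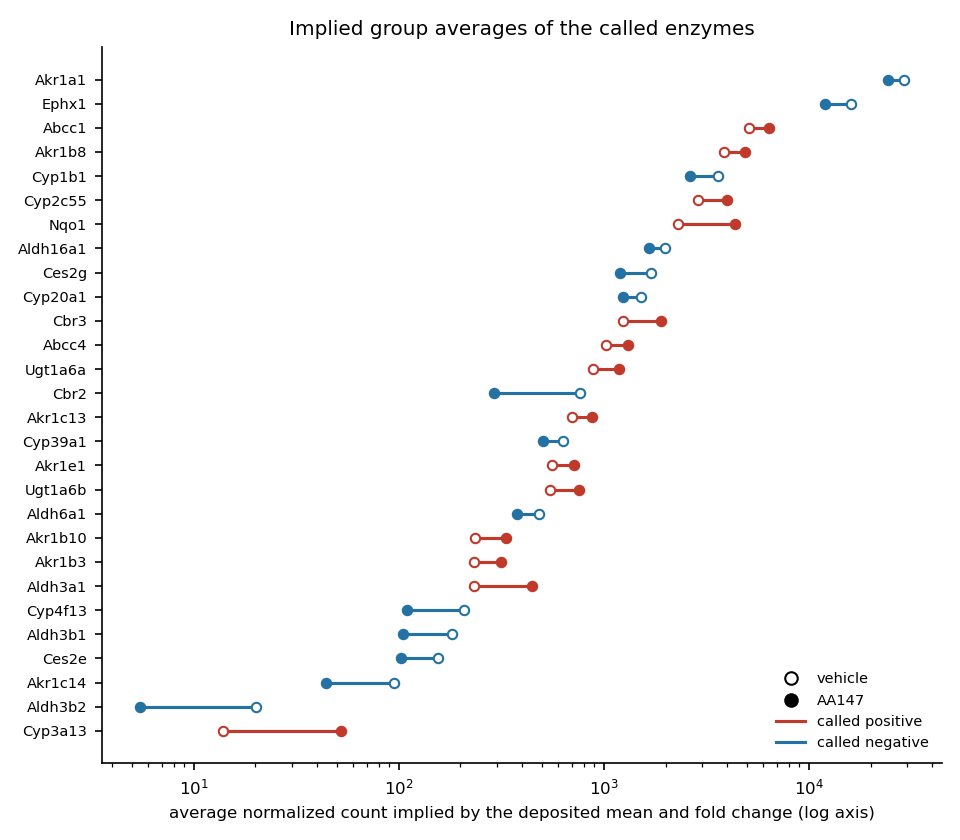
Average normalized count per group (x axis, log scale) implied by the deposited mean and fold change for the 28 called enzymes (y axis). Open circles stand for vehicle and filled circles for AA147, with red lines for positive and blue lines for negative calls. Nqo1 goes from 2306 to 4381 and Cbr2 from 763 to 292, while Akr1a1 and Ephx1 hold the highest levels.

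Levels of different genes can be compared only per length. Per kilobase of the canonical transcript, 9 of the 64 genes exceeded 1000 mean normalized counts: Akr1a1 (18677), Ephx1 (3549), Akr1b8 (3202), Por (2266), Cyp2c55 (1711), Nqo1 (1252), Akr7a5 (1140), Aldh9a1 (1095) and Cbr3 (1014). Another 44 lay between 10 and 1000, and 11 under 10. The implied sums per kilobase in vehicle and with AA147 were 981 and 1773 for quinone reductases, 472 and 621 for Ugt genes, and 688 and 485 for carboxylesterases. These families were chosen after the values were seen. In percent, the sums differed less for carbonyl reductases, at 2385 and 2443, and for aldehyde dehydrogenases, at 3083 and 2921. With the other numerator, each pair would change places. Nqo1 held 90.9% of the mean per kilobase of its family, Ces2g 86.6% and Ugt1a6a 57.9%.

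Of the 36 members not called, 17 had a 95% interval within 0.5 of no change on either side, and all 17 had a mean of at least 123. For these, changes beyond 0.5 lie outside the interval. The interval of another 6 stayed within 1. The remaining genes, all with means up to 37.1, could have changed by more without being called at this depth. The other 17 members, Aldh5a1, Ephx3, Ephx4, Cyp2b13, Cyp2c44, Cyp2t4, Cyp4b1, Ces1a, Ces4a, Ugt1a9, Ugt1a10, Sult1c2, Sult2b1, Sult6b1, Abcc2, Abcc6 and Abcc12, had no adjusted p in the authors' deposited table. Their means ran from 1.67 to 8.30, 0 had an unadjusted p under 0.05, and they carry no call.

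Genes that supply or surround these enzymes were counted from lists of 108 further genes, of which 88 were listed and 84 had an adjusted p. Of these, 13 were called positive and 16 negative, which is 34.5% beside the 20.2% of all genes. The list for NADPH supply held 3 positive and 5 negative calls among 10 genes, beside 9.05% and 11.1% of all genes tested. It mixes cytosolic and mitochondrial enzymes, so these counts do not describe the supply as a whole. Of the oxidative pentose phosphate enzymes, G6pdx at 0.61 (SE 0.064, adjusted p 1.15e-19) and Pgd at 0.59 (SE 0.061, adjusted p 2.05e-20, per the authors' deposited table) were called positive. Pgls, of the same branch, was called negative at -0.38. Malic enzyme Me1 was called positive at 0.35. Idh1 at -0.85, Idh2 at -0.24, Mthfd2 at -0.36 and Me3 at -1.35 were also called negative in the authors' deposited table. Idh1, the cytosolic isocitrate dehydrogenase, had the smallest adjusted p of these, 1.6e-33 in the authors' deposited table.

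Other carbonyl enzymes included larger positive changes than any abundant member. Esd, an esterase that hydrolyses S-formylglutathione, lay at 1.33 (SE 0.073, adjusted p 5.26e-71), and Ptgr1, which reduces the double bond of unsaturated aldehydes, at 1.24 (SE 0.062, adjusted p 8.31e-86, per the authors' deposited table). Vat1 at 0.34 and Hagh at 0.28 were also called positive, and Dhrs7, Rdh11, Hsd17b10 and Cryzl1 negative at -0.34 to -0.28. This made 4 positive and 4 negative calls of 24 genes listed, beside 9.05% and 11.1% of all genes tested. Of 11 listed P450 electron carriers, Por among them, 3 were called positive and 1 negative, beside the same shares of all genes. The negative share is near that of all genes. Cyb5r3 was called negative at -0.53 (SE 0.060, adjusted p 8.07e-17), and Cyb5a at 0.34, Cyb5r4 at 0.36 and Pgrmc1 at 0.25 positive in the authors' deposited table.

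Of 9 genes listed for phase II cofactor supply, 1 was called positive and 3 negative, beside 9.05% and 11.1% of all genes tested. The positive share is near that of all genes. The median of the 9 was 0.05, which is the value of Gusb, a beta-glucuronidase that splits conjugates and supplies no cofactor. Ugdh, which makes UDP-glucuronate, was called negative at -0.24 (SE 0.061, adjusted p 0.00118), as were Ugp2 at -0.21 and the sulfate donor enzyme Papss1 at -0.23, and Bpnt1 was called positive at 0.30 in the authors' deposited table. Of 11 other phase I and II enzymes with an adjusted p, 2 were called positive and 1 negative, beside 9.05% and 11.1% of all genes tested. The negative share is near that of all genes. Xdh at 0.39 and Pon2 at 0.20 were called positive and Nnmt at -0.75 negative in the authors' deposited table. Of 6 other xenobiotic transporters with an adjusted p, only 1 was called, beside 20.2% of all genes tested. It was Abcg2, called negative at -0.34 (SE 0.078, adjusted p 0.000163, per the authors' deposited table). Of 14 listed regulators, only 1 was called, beside 20.2% of all genes tested. It was Nfe2l2, which encodes NRF2, called negative at -0.21 (SE 0.069, adjusted p 0.0174, per the authors' deposited table). Keap1, its inhibitor, lay at 0.02 (SE 0.067) and Ahr at 0.25 (SE 0.16, adjusted p 0.304, per the authors' deposited table), and neither was called.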

How the data were processed

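The study measured mRNA by non-stranded RNA-seq in 6 HT22 libraries, 3 exposed to AA147 and 3 to vehicle. The authors deposited 1 table with 1 line per gene. Per the file headers its columns are those of DESeq2, which the submitters' processing notes name along with the mouse build mm9. The aligner, counter, annotation and filters are not given in the sources used here. The authors deposited a mean normalized count per gene, a signal over all libraries with no depth for any of them. The authors deposited a log2 fold change with its SE, and a score per gene: its Wald-type statistic, identical to fold change over SE (largest difference 3.06e-07). The deposited p-value equalled the 2-sided normal p of that statistic (largest difference 4.98e-08). The adjusted p was empty for 2875 genes, all with a mean of at most 8.41.

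Members were found by symbol, and calls use the authors' adjusted p under 0.05 over 13597 genes. No test between libraries was run, and p-values reflect only the spread between these libraries. Members and lists were chosen with earlier results of these data known. Named were all called members, the most abundant of each family, textbook NRF2 and AhR targets and called genes of the lists of related genes; other genes were named after their values were seen. Intervals are normal 95% intervals from the SE. Transcript lengths, identities (BLAST 2.17.0, alignments over at least 50% of the shorter transcript) and exon overlaps came from canonical transcripts and exons of GENCODE M39, and gene order and promoters from RefSeq for GRCm38.p6. No coordinates of mm9 were used. Protein sequences were not used here. Python 3.11.15, pandas 2.3.3 and SciPy 1.17.1 were used, and the calling code was tested on simulated data. Alternatives were a stricter or recomputed adjustment, limits on fold change and mean, and centring.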

Additional observations from a re-analysis of the deposited data

How the results depend on the processing

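No paired analysis was possible because no values of individual libraries were analysed here. So refits with another normalization or tool, the replicate block and leaving out each replicate in turn were not run, so a library that stands apart could not be seen. Among the 45 members with a mean of at least 100, the SE was between 0.899 and 1.12 times the median SE of genes of similar mean.

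The 14 positive and 14 negative calls became 4 and 7 when a change of 0.5 on the log2 scale was also required, and 6 and 5 with a Bonferroni adjustment, each stricter by construction. An adjusted p under 0.01 left 13 and 9, losing Akr1b3, Aldh3b2, Aldh6a1, Aldh16a1, Ces2e and Cyp39a1. Centring on abundant genes, a shift of 0.01, kept all 28 and added Por as negative. Adjustment over all genes with a p lost Aldh6a1 alone. Without the 9 members at least 90% identical to another, an alternative chosen after the data were seen, 11 and 14 calls were counted. The median stayed between -0.10 and -0.04 in every setting run. A longer form of the antioxidant core, with an A added at its end, is stricter by construction. It was found in 0% of the 10 positive members with a window, in place of 10%. Of all genes of the table with a window, 3.47% held it, so so few members cannot show a difference.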
